A study of Mus musculus with 8 samples.

Results

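The genes described here encode enzymes of cholesterol synthesis and are listed by their pathway: Hmgcs1, Mvk, Mvd, Idi1, Fdps, Fdft1, Sqle and Lss. The list was chosen with earlier results of these data known. Of these 8 genes, 7 had an Ensembl gene ID among the 37620 IDs of the count files, and all 7 passed the filter on low counts that left 15355 genes for testing. Hmgcs1 was not analysed here, apart from its promoter sequence. RNA depleted of ribosomal RNA was sequenced in 8 libraries of erythroid progenitors, cells on their way to red blood cells, which were taken from fetal livers of C57BL/6 mouse embryos at E14.5 by magnetic sorting. All cells had received a short hairpin or an expression vector by transduction, and were collected after 24 h in medium with erythropoietin. One set held a control hairpin and 2 hairpins against Bloodlinc, a long noncoding RNA also called alncRNA-EC7. A second set held its own control hairpin and 2 hairpins against Hnrnpu, the gene of the nuclear RNA-binding protein hnRNP U, and a pair compared a Bloodlinc vector with an empty vector. Each of these conditions was 1 library, and the labels do not say whether libraries came from separate cultures or pools of embryos, nor which promoters drove the constructs. The p-values therefore rest only on the spread between the 2 hairpins of each target, taken almost wholly as a trend over all genes. The distance between a gene's own 2 hairpins adds little to its p-value.

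Cells build cholesterol from acetyl-CoA. In the mevalonate stage, HMG-CoA synthase makes the precursor of mevalonate, which kinases and a decarboxylase turn into isoprene units; these are joined to farnesyl diphosphate, then to squalene, which is oxidised and closed into the first sterol, lanosterol. Farnesyl diphosphate is also the branch point to prenylated proteins, dolichol, ubiquinone and heme A. When sterols in the endoplasmic reticulum run low, the factor SREBP2 is released from its membrane precursor and, together with NF-Y and Sp1, switches on most genes of the pathway. Mature red cells have lost the nucleus and internal membranes, and their cholesterol then exchanges with that of plasma lipoproteins.

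RefSeq promoter windows on GRCm38.p6 matched 5 of the 8 genes, namely Hmgcs1, Mvk, Mvd, Idi1 and Lss, and the 250 bases before each start were searched on both strands. The sequences are shown because these genes are known to be switched on together, and the letters their promoters share bear on that background. A sterol response element, searched as TCACNCCAC, matched 1 of 5 windows, that of Hmgcs1, against 1.05% of 32817 RefSeq windows of the same length. The sequence just after the RefSeq start was found in a GENCODE M21 transcript for Mvk, Mvd, Idi1 and Lss, but not for Hmgcs1. The distance to the Hmgcs1 start therefore rests on RefSeq alone. The match began 137 bases before that start at chr13:119690204-119690232 on the plus strand, and the site is shown with its match in capitals.
Hmgcs1: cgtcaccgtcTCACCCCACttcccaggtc
The CCAAT box, the sequence that NF-Y binds, was searched as CCAAT and matched 5 of 5 windows against 33.8% of all windows. Mvk held 5 matches, Hmgcs1 held 3, Mvd and Idi1 held 2 each, and Lss held 1. In the stretches below, capitals mark CCAAT or its reverse complement. The Mvk stretch lies at chr5:114444069-114444268 (plus strand), the Mvd stretch at chr8:122443423-122443622 (minus strand) and the Lss stretch at chr10:76531405-76531587 (plus strand). For Idi1, only the 2 sites are shown, since its RefSeq start lies within an annotated first exon: chr13:8885551-8885575 and chr13:8885582-8885605, both on the plus strand.
Mvk: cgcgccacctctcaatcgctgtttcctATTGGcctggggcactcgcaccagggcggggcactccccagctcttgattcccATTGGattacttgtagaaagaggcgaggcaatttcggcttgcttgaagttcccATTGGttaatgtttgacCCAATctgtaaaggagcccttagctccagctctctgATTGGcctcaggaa
Mvd: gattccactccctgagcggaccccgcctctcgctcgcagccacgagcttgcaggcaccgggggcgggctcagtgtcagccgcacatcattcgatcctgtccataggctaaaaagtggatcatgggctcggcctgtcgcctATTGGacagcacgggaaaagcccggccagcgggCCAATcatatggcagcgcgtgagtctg
Idi1 site 1: cctccagctgATTGGcgagcccggg
Idi1 site 2: ccaaggtgccATTGGctggcgacc
Lss: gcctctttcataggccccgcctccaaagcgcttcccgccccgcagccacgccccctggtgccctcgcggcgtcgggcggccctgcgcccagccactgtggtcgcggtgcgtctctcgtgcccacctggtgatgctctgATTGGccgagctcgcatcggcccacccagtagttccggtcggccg
The GC box, to which Sp1 binds, was searched as GGGCGG and also matched 5 of 5 windows, against 32.7% of all. The E-box CACGTG matched 0 of 5, against 6.02%. In these windows no match of one motif shared bases with a match of another, and a match describes the sequence, not a measured binding site.

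Depth and marker levels differed between the sets. Counts in genes ranged from 23682993 to 34540691 in 6 libraries but came to 2931627 and 2612916 with hnRNPU hairpins 1 and 2, where reads outside genes made up 89.7% and 86.6% of unique counts, against 21.7% to 30.1% in the rest. Of the counts in genes, 32.9% and 23.1% in those 2 libraries fell on IDs without a match in the annotation used here. That share was 0.69% to 1.45% in the others. The 7 genes had 6 to 198 counts each in the 2 hnRNPU hairpin libraries and 186 to 15203 in the others. Levels below are TMM-scaled CPM, counts relative to library size. Bloodlinc was at 4.46 CPM in its control and at 2.19 and 1.75 CPM with its hairpins (log2 fold change -1.18, SE 0.81, edgeR adjusted p = 1). Hnrnpu was at 588 CPM in its control and at 325 and 373 CPM with its hairpins (-0.75, SE 0.58, edgeR adjusted p = 0.730), so neither target passed the test. The 12 erythroid markers were present in every library, with summed levels of 13457 to 54386 CPM. The 10 hepatocyte markers, of a fetal liver cell type that makes much cholesterol, summed to at most 14.98 CPM in any library. Of them, Alb, the albumin gene, was at 0 in Bloodlinc hairpin 1 and in the hnRNPU control, and the 2 vector libraries, with 14.98 and 12.9 CPM, had the highest sums.

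The 7 genes spanned a wide range of levels. When counts were also divided by the length of the longest coding transcript, Fdps, which encodes farnesyl diphosphate synthase, was the highest of the 7 in all 8 libraries, with a median level of 118 CPM per kb and a range of 29.4 to 289. Sqle, for squalene epoxidase, an oxygen-dependent and rate-controlling step, followed with a median of 67.2 (21.4 to 81.1), and Fdft1, for squalene synthase, with 43.3 (17.4 to 133). Those 2 genes changed places between libraries. Lss, for lanosterol synthase, which closes the sterol rings, had a median of 15.7 (2.03 to 37.3) on this scale. Mvd, for mevalonate diphosphate decarboxylase, had 10.1 (2.92 to 23.7), and Mvk, for mevalonate kinase, had 8.33 (2.14 to 16.2). Lss, Mvd and Mvk exchanged the ranks from 4 to 6, and their ranges overlapped. Idi1, which interconverts the isoprene units, was the lowest in all 8 libraries, at 4.56 (1.56 to 8.09). The order depends on the length used: per kb of all annotated exons, Fdps ranked between 1 and 3 and Idi1 between 5 and 7.

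**Figure D1:**
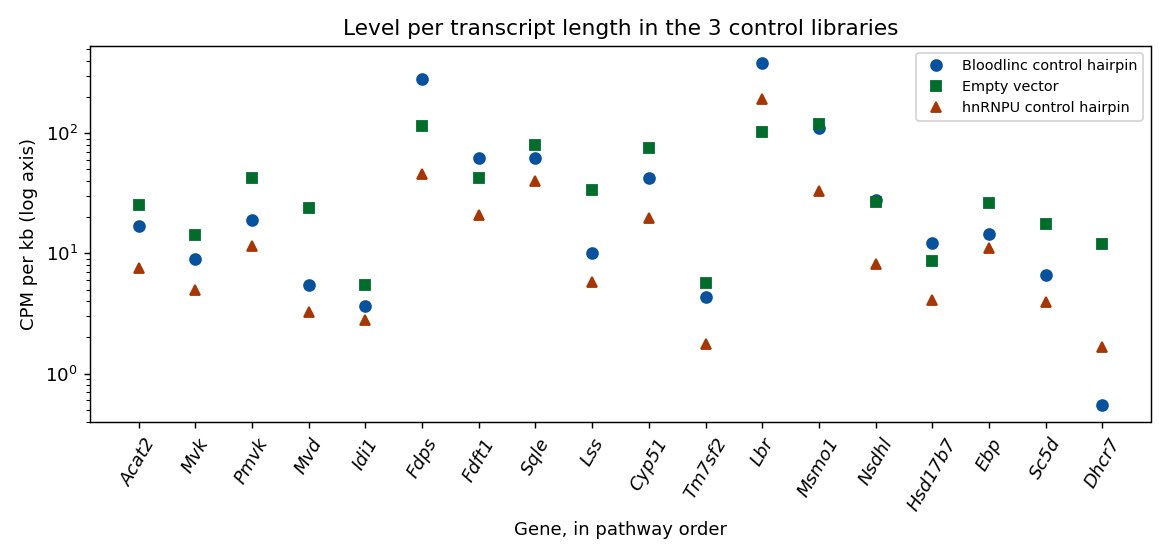
Level of 18 cholesterol synthesis genes in the 3 control libraries, in CPM per kb of the longest coding transcript (log axis), in pathway order from Acat2 to Dhcr7. Each point is 1 library. Fdps lies above Mvk, Mvd, Idi1, Fdft1, Sqle and Lss in each control, and the hnRNPU control hairpin lies lowest for all 7 genes described.

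Among the mevalonate-stage genes, Mvk (chromosome 5, 114444269 to 114460591 on GRCm38) was at 14.8 CPM in the Bloodlinc control hairpin library and at 12.8 and 26.9 CPM with Bloodlinc hairpins 1 and 2. Its level was 23.5 CPM with the empty vector and 25.9 CPM with the Bloodlinc vector. In the hnRNPU set the control hairpin library had 8.21 CPM, and hairpins 1 and 2 had 3.55 and 9.06 CPM, from only 6 and 23 counts. The 2 hairpins of each target lay on opposite sides of their control. Mvd (chromosome 8, 122433601 to 122443422) was at 9.53 CPM in the Bloodlinc control, 26.2 and 25.9 CPM with Bloodlinc hairpins 1 and 2, and 41.6 and 40.0 CPM in the empty and Bloodlinc vector libraries. It was at 5.72 CPM in the hnRNPU control and at 7.68 and 5.12 CPM with the hnRNPU hairpins, 13 counts each. Both Bloodlinc hairpins thus stood above their control by nearly the same amount, while the hnRNPU hairpins straddled theirs. Idi1 (chromosome 13, 8885501 to 8892451) was at 11.1 CPM in the Bloodlinc control and at 18.3 and 24.5 CPM with the hairpins, with 16.5 and 17.2 CPM in the vector pair. In the hnRNPU set Idi1 was at 8.42 CPM in the control and 4.73 and 5.91 CPM with hairpins 1 and 2, from 8 and 15 counts. Both Bloodlinc hairpins were above their control and both hnRNPU hairpins below theirs.

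At the branch point, Fdps (chromosome 3, 89093588 to 89101959) was at 392 CPM in the Bloodlinc control, 399 and 255 CPM with Bloodlinc hairpins 1 and 2, and 157 and 168 CPM in the empty and Bloodlinc vector libraries. The hnRNPU control had 63.2 CPM, and its hairpins 1 and 2 had 45.5 and 40.6 CPM. Its 3 highest libraries were the whole Bloodlinc hairpin set, as for Fdft1 but for none of the other 5 genes. The Fdps control hairpin level in that set was 6.20 times the control hairpin level of the hnRNPU set, the widest such ratio among the 7 genes. Fdft1 (chromosome 14, 63145150 to 63179578), the first step committed to sterols, was at 229 CPM in the Bloodlinc control, 254 and 493 CPM with the hairpins, and 157 and 164 CPM in the vector pair. It was at 76.9 CPM in the hnRNPU control and at 64.4 and 77.6 CPM with the hairpins. Fdft1 overlaps Ctsb, a lysosomal protease gene on the other strand at 338 to 1650 CPM, and the strand setting of the counting is not given in the sources used here, so that reads of the 2 genes may not be separated where they overlap.

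Sqle (chromosome 15, 59315077 to 59331192) was at 172 CPM in the Bloodlinc control, 218 and 199 CPM with the Bloodlinc hairpins, and 219 and 224 CPM in the vector pair. The hnRNPU control had 110.2 CPM, and its hairpins 1 and 2 had 59.1 and 78.0 CPM. Sqle varied least over the 8 libraries, and its 5 libraries outside the hnRNPU set stayed between 172 and 224 CPM. Lss (chromosome 10, 76531588 to 76557138) was at 46.9 CPM in the Bloodlinc control, 100.02 and 115 CPM with the Bloodlinc hairpins, and 159 and 174 CPM in the vector pair. The hnRNPU control had 27.1 CPM, and its hairpins 1 and 2 had 9.46 and 19.7 CPM, from 16 and 50 counts. Lss spanned the widest range of the 7, with both Bloodlinc hairpins above and both hnRNPU hairpins below their controls.

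**Figure D2:**
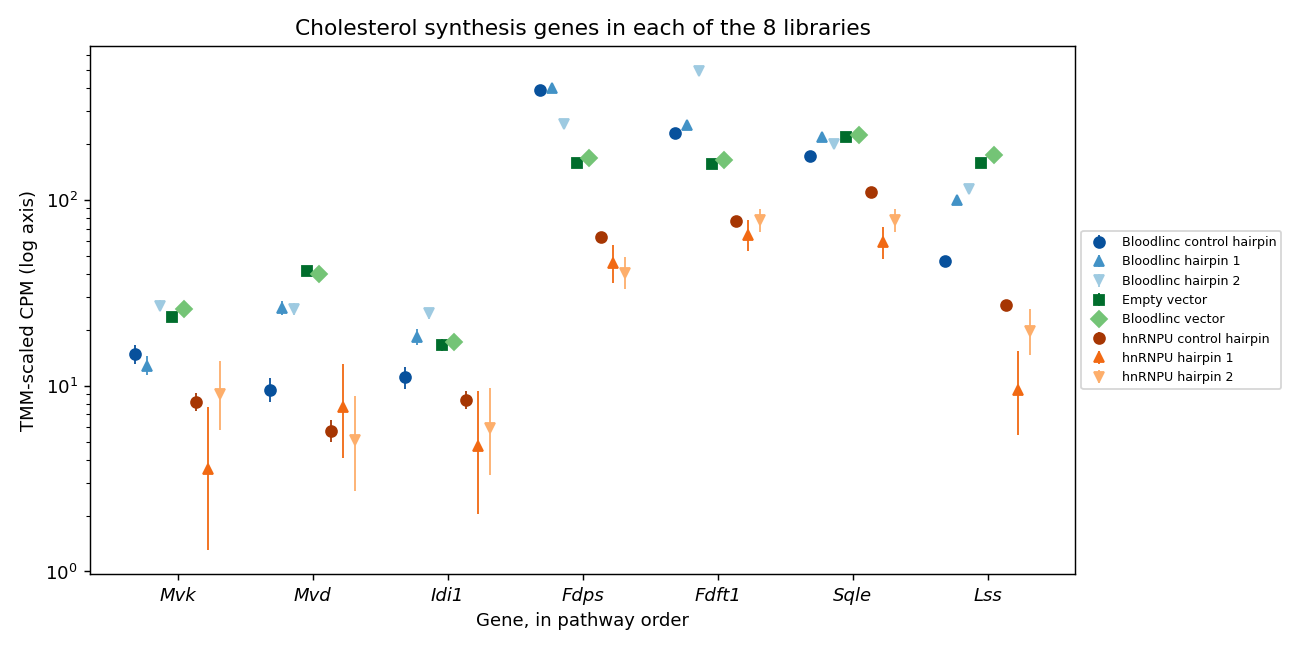
TMM-scaled CPM (log axis) of the 7 genes in each of the 8 libraries, with exact 95% Poisson intervals that cover counting error only and are hidden by the symbol where narrow. The 3 libraries of the hnRNPU set lie lowest for every gene, and the empty and Bloodlinc vector libraries lie close together.

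The clearest feature of the 7 genes was the split between sets of libraries rather than between a knockdown and its control. For 7 of 7 genes, all 3 libraries of the hnRNPU set, control included, lay below all 5 other libraries. Of all genes tested, 6.92% showed that order. The split was chosen after the values were seen and gets no test. The summed level of the 7 genes was 299.7 CPM in the hnRNPU control hairpin library and 194 and 236 CPM with its hairpins, against 773 to 1139 CPM in the other 5. The range of the 3 set means was also wider than the range within any set for 7 of 7 genes, against 42.9% of genes tested. For Lss the set means spanned 3.27 on the log2 scale and its 3 Bloodlinc libraries 1.29. Over the 3 control libraries alone, the log2 range was 2.85 for Mvd, 2.63 for Fdps and 2.54 for Lss, and 0.97 for Idi1 and 0.99 for Sqle, against a median of 1.23 over all genes tested. For each of the 7 genes this range over controls exceeded the size of both fitted knockdown effects given below, and the labels name no batch that would separate the sets. In bulk RNA, a lower share of cells that express these genes and less RNA per cell cannot be told apart. Within the hnRNPU set, granulocyte markers summed to 1591, 9254 and 3415 CPM in the control and hairpins 1 and 2, against 41.3 to 100.5 CPM in the Bloodlinc hairpin set and 954 and 920 CPM in the vector pair. Their part in the lower levels was not tested.

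**Figure D3:**
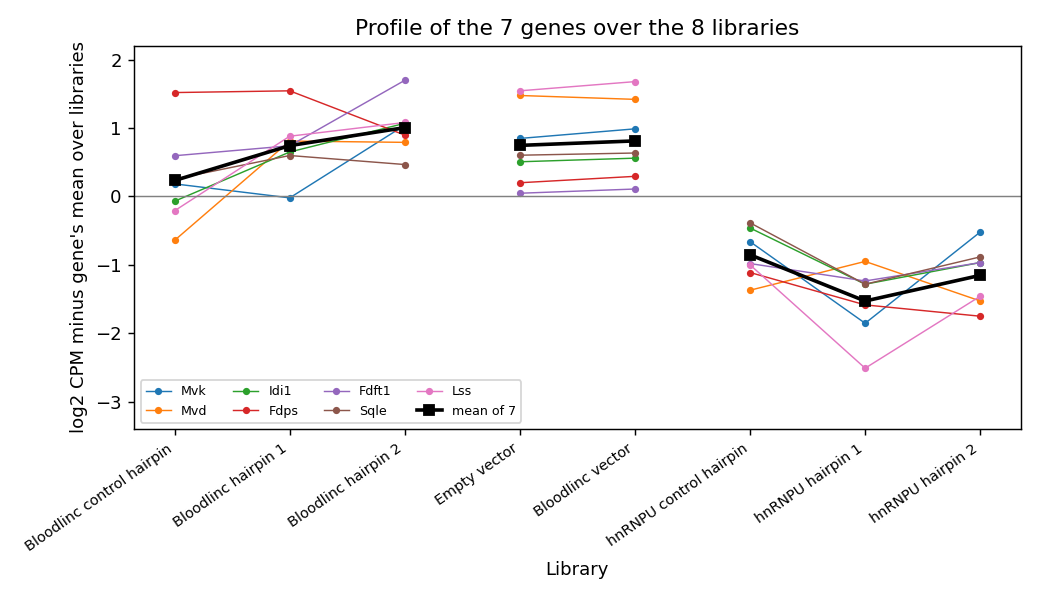
The log2 CPM of each of the 7 genes minus its mean over the 8 libraries (thin lines), with their mean (black squares). The mean lies between 0.23 and 1.01 in the Bloodlinc hairpin set and the vector pair, and between -1.53 and -0.85 in the hnRNPU set.

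The knockdown of Bloodlinc asked whether this noncoding RNA influences gene expression in maturing erythroid cells. No cholesterol synthesis gene passed the test, although most were higher than in the control: 0 of 7 were called at an adjusted p under 0.05, against 0.124% of genes tested (19 genes). For 5 of 7 genes, namely Mvd, Idi1, Fdft1, Sqle and Lss, both hairpins were above the control, against 31.5% of genes tested, and for 0 of 7 both were below, against 30.7%. In the fit, 6 of 7 were higher, with a median log2 fold change of 0.70 beside 0.06 over all genes tested, of which 53.5% were higher. Mvd had the largest difference, with a hairpin mean of 26.0 ± 0.243 CPM (SD, n = 2) and a log2 fold change of 1.45 (SE 0.62, edgeR adjusted p = 0.962). Lss had 1.20 (SE 0.57, adjusted p = 1) and a hairpin mean of 107.5 ± 10.6 CPM (SD, n = 2), 2.29 times its control. These 2 genes were also the ones with an unadjusted edgeR p under 0.05, which 3.99% of all genes tested had, and DESeq2 likewise called 0 of 7.

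For Idi1 the log2 fold change was 0.95 (SE 0.64) and for Fdft1 0.70 (SE 0.58), each with an edgeR adjusted p of 1. The 2 hairpins were 0.96 apart on the log2 scale for Fdft1 and 0.42 apart for Idi1. Mvk had 0.43 (SE 0.61), Sqle 0.28 (SE 0.57) and Fdps -0.26 (SE 0.56), again with adjusted p = 1. Mvk rested on hairpin 2, since without that library its log2 fold change was -0.21, and Fdps turned to 0.03 without it. Over the 7 genes the median difference from the control was 0.34 for hairpin 1 and 1.10 for hairpin 2.

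The calls depended on the control library. With the control hairpin of the hnRNPU set in place of its own, 4 of 7 genes passed: Fdps at 2.37 (edgeR adjusted p = 0.00612), Fdft1 at 2.28 (0.00894), Mvd at 2.19 (0.0146) and Lss at 1.99 (0.0181). The same substitution called 6.79% of genes tested (1043 genes). Against the range of the 3 control libraries, both Bloodlinc hairpins lay inside it for 3 of 7 genes (Mvd, Sqle and Lss), against 35.2% of genes tested. Erythroid markers also had lower fitted levels with the Bloodlinc hairpins in 12 of 12 cases (0 called). Of all genes tested, 53.5% were higher and 0.124% called. The erythroid markers summed to 54386 CPM in the control and 31622 and 24706 CPM with hairpins 1 and 2. Their part in the differences was not tested.

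The knockdown of Hnrnpu, the protein's gene, posed the same question for hnRNP U. Again 0 of 7 genes were called, against 0.879% of genes tested (135 genes), with 0 of 7 called by DESeq2. At an unadjusted edgeR p under 0.05 were 0 of 7, against 9.89% of genes tested (1518 genes). Of those 135, 89 were higher and 46 lower, a split that became 126 and 38 with DESeq2 size factors and 130 and 33 with upper quartile scaling. Both hairpins were below the control for 4 of 7 genes (Idi1, Fdps, Sqle and Lss), against 42.3% of genes tested, and above it for 0 of 7, against 28.6%. The share of 4 of 7 is near that background. In the fit 6 of 7 genes were lower, with a median log2 fold change of -0.56 beside -0.09 over all genes. Both hairpins lay within the range of the 3 control libraries for 0 of 7, against 21.9% of genes tested. The hnRNPU control was the lowest of the 3 controls for each of the 7 genes. This count therefore follows from both hairpins being above it for 0 of 7, and adds nothing to that result. The scaling moved the median of all genes to 0.03 with DESeq2 size factors and 0.07 with upper quartile scaling, and Fdft1 then turned positive, at 0.03 and 0.07. Without hairpin 2 the median of the 7 was -0.84.

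Lss had the largest difference, -0.87 (SE 0.55, edgeR adjusted p = 0.656), with a hairpin mean of 14.6 ± 7.24 CPM (SD, n = 2) beside 27.1 CPM in the control. Sqle followed with -0.68 (SE 0.55, adjusted p = 0.747) and a hairpin mean of 68.6 ± 13.4 CPM (SD, n = 2) beside 110.2 CPM. Idi1 had -0.65 (SE 0.66, adjusted p = 0.810), Fdps -0.56 (SE 0.57, adjusted p = 0.809), Mvk -0.33 (SE 0.65, adjusted p = 0.904), Fdft1 -0.11 (SE 0.57, adjusted p = 0.966) and Mvd 0.14 (SE 0.64, adjusted p = 0.962). Without hairpin 1, Mvk was at 0.13, Mvd at -0.17 and Fdft1 at 0.01, so the direction of these 3 genes rested on that library. Mvk, Mvd, Idi1 and Lss had 6 to 50 counts in each hairpin library, and exact 95% Poisson intervals cover counting error only. The 8 counts of Idi1 with hairpin 1 allow 2.04 to 9.32 CPM, which includes its control level of 8.42 CPM. The intervals of Lss, 5.41 to 15.4 CPM with hairpin 1 and 14.6 to 26.0 CPM with hairpin 2, lay below its control level, as did that of Mvk with hairpin 1 (1.30 to 7.72 CPM, control 8.21 CPM). The controls have counting error too. The control interval of Lss, 25.5 to 28.8 CPM, overlapped that of hairpin 2. For Mvk the control interval, 7.33 to 9.17 CPM, overlapped that of hairpin 1. With the Bloodlinc set's control hairpin as control, 3 of 7 genes passed, against 15.2% of genes tested (2340 genes). These were Fdps at -3.19 (edgeR adjusted p = 1.62e-06), Fdft1 at -1.69 (0.0210) and Lss at -1.66 (0.0228). The share of counts outside genes, the share on unmatched IDs, the depth and the granulocyte markers given above all moved with this knockdown. Their part in the differences was not tested.

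**Figure D4:**
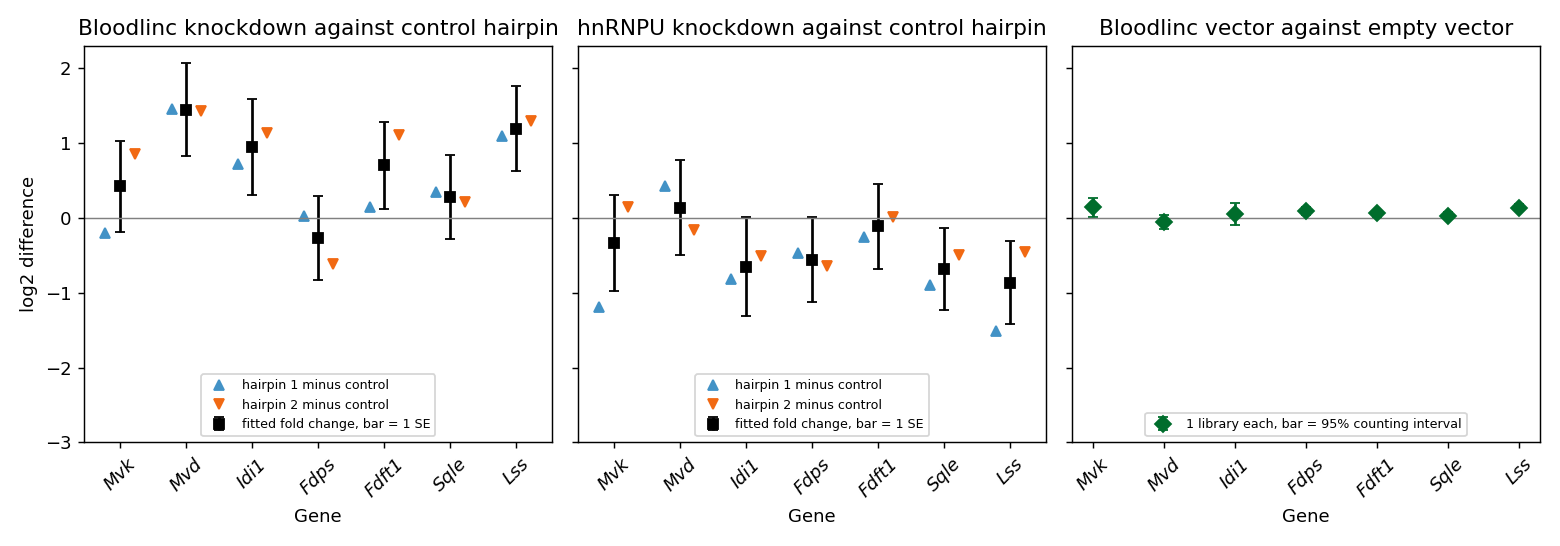
Log2 differences of the 7 genes for each hairpin (triangles, single libraries with a prior count of 2) and for the fit (black squares, bars of 1 SE) in the 2 knockdowns, and for the Bloodlinc vector against the empty vector (1 library each, bars of the 95% counting interval). Fitted values span -0.26 to 1.45 with Bloodlinc hairpins and -0.87 to 0.14 with hnRNPU hairpins, and the vector pair stays between -0.06 and 0.14.

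The 2 knockdown effects were compared in the same fit, each against its own control library. The Bloodlinc effect was the higher for 7 of 7 genes, with a median difference of 0.96 on the log2 scale beside 0.30 over all genes tested, of which 61.8% had a positive difference. None passed: 0 of 7 were called, against 0.326% of genes tested (50 genes), with 0 called by DESeq2. At an unadjusted edgeR p under 0.05 was 1 of 7, against 4.11% of genes tested (631 genes). That gene was Lss, whose difference was 2.06 (SE 0.79, edgeR adjusted p = 0.600). Idi1 had 1.60 (SE 0.92), Mvd 1.31 (SE 0.86) and Sqle 0.96 (SE 0.80), each with an edgeR adjusted p of 0.9999. Fdps had 0.29 (SE 0.81), and without Bloodlinc hairpin 1 it was -0.01. For 3 of 7 genes (Idi1, Sqle and Lss), both Bloodlinc hairpins were above and both hnRNPU hairpins below their controls, against 10.1% of genes tested.

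Overexpression of Bloodlinc left the 7 genes near their level in the empty vector library. The vector gave 250 Bloodlinc counts (5.46 CPM) against 52 (1.26 CPM) with the empty vector. The level reached was little above that in the Bloodlinc and hnRNPU control hairpin libraries, 4.46 and 4.35 CPM. With 1 library per arm there is no replicate check, and the 95% exact binomial intervals of the count ratios cover counting error only. A log2 difference of at least 1 was reached by 0 of 7 genes, against 1.75% of genes tested (269 genes). The largest difference was that of Mvk, 0.14 (interval 0.02 to 0.26), followed by Lss at 0.13 (0.09 to 0.18) and Fdps at 0.09 (0.05 to 0.14). Fdft1 was at 0.06 (0.01 to 0.11), Idi1 at 0.05 (-0.10 to 0.20), Sqle at 0.03 (-0.01 to 0.07) and Mvd at -0.06 (-0.15 to 0.04). The intervals of Mvk, Lss, Fdps and Fdft1 lay above 0, those of Idi1, Sqle and Mvd included it, and each upper bound was far below the fold named.

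The other steps of cholesterol synthesis had 14 of 14 genes tested and showed the same directions, again without a call. With Bloodlinc hairpins 12 of 14 were higher (median 0.51) and with hnRNPU hairpins 12 of 14 were lower (median -0.44). In both, 0 were called by edgeR or DESeq2. Over all genes tested, 53.5% were higher with Bloodlinc hairpins and 45.7% with hnRNPU hairpins, and edgeR called 0.124% and 0.879%. At an unadjusted edgeR p under 0.05 were 1 and 3 of the 14, against 3.99% and 9.89% of genes tested in the 2 comparisons. Dhcr7, for the reductase that completes cholesterol, was at 1.54 CPM in the Bloodlinc control and 4.51 and 7.49 CPM with the hairpins (1.96, SE 0.72, edgeR adjusted p = 0.697). It was at 33.7 and 30.5 CPM in the vector pair, above all 3 of those libraries. Acat2, which makes acetoacetyl-CoA at the start of the pathway, had 1.07 (SE 0.56) with Bloodlinc hairpins and -1.22 (SE 0.58, edgeR adjusted p = 0.455) with hnRNPU hairpins. Lbr, a nuclear envelope protein that is also a sterol reductase, was lower in both, at -0.94 (SE 0.59) and -1.31 (SE 0.59).

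**Figure D5:**
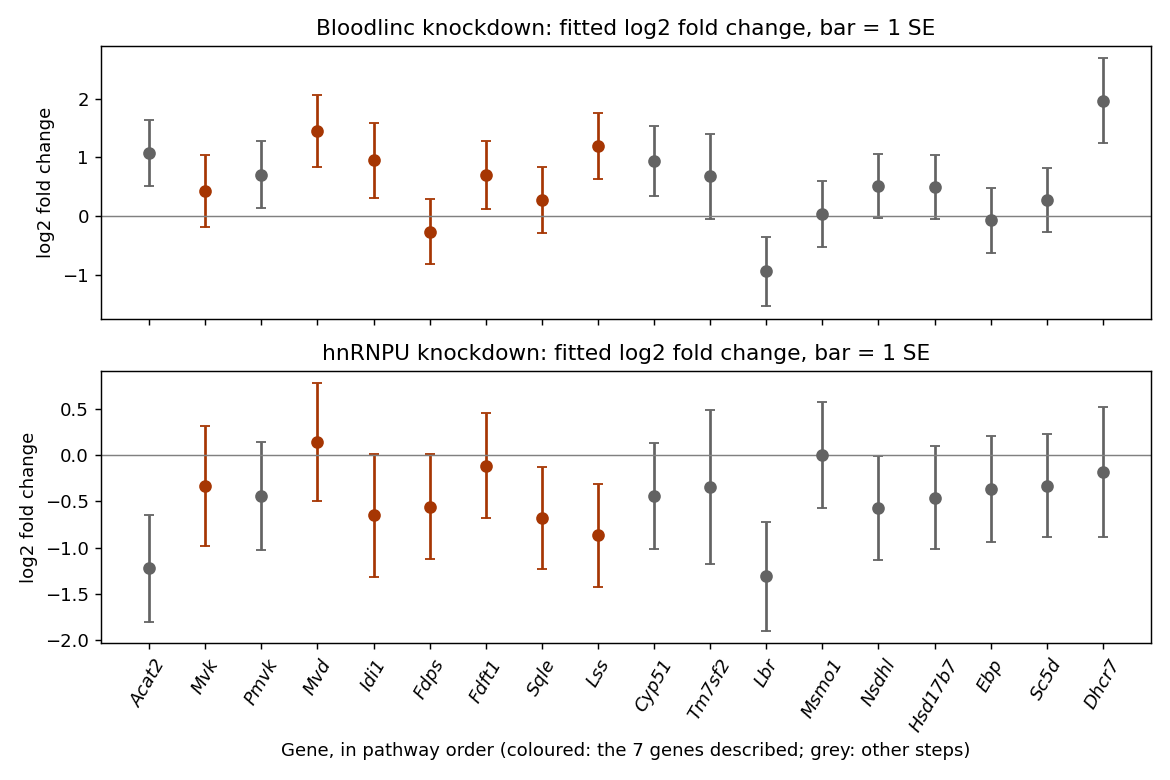
Fitted log2 fold changes (bars of 1 SE) of 18 cholesterol synthesis genes in pathway order, with Bloodlinc hairpins (upper panel) and hnRNPU hairpins (lower panel), the 7 genes described being coloured. None passed an adjusted p of 0.05, and Dhcr7 (1.96) and Lbr (-0.94) mark the ends of the upper panel. Idi2, at a mean of 0.312 CPM, is not drawn.

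Of the genes that turn isoprene units into other products, 8 of 17 were higher with Bloodlinc hairpins (median -0.01). With hnRNPU hairpins 14 of 17 were lower (median -0.55). By edgeR and by DESeq2 0 were called in either. An unadjusted edgeR p under 0.05 was found for 0 and 1, beside the same 3.99% and 9.89% of genes tested. Over all genes tested, 53.5% and 45.7% were higher in the 2 comparisons, and edgeR called 0.124% and 0.879%. These are the genes of the branches. Among the 17 genes, Fntb, the beta subunit of protein farnesyltransferase, had -0.11 (SE 0.57) with Bloodlinc hairpins and -1.31 (SE 0.58) with hnRNPU hairpins. Nus1, a subunit of the enzyme that makes dolichol precursors, had -0.09 (SE 0.55) and -1.08 (SE 0.56), and Rce1, a protease of prenylated proteins, had -0.06 (SE 0.67) and -0.999 (SE 0.71). Rabggta, a subunit of the transferase that prenylates Rab proteins, had 1.01 (SE 0.76) and 0.37 (SE 0.75).

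Of the genes that sense sterols and control SREBP, 10 of 12 were higher with Bloodlinc hairpins (median 0.32), beside 53.5% of genes tested. With hnRNPU hairpins 9 of 12 were lower (median -0.25), where 45.7% of genes tested were higher. By edgeR or DESeq2 0 were called in either, against 0.124% and 0.879% of genes tested by edgeR. An unadjusted edgeR p under 0.05 was reached by 0 in either, against 3.99% and 9.89% of genes tested. Srebf2, which encodes SREBP2, had 0.29 (SE 0.56) and -0.25 (SE 0.55). Its levels of 166, 151 and 254 CPM in the Bloodlinc control and hairpins 1 and 2 put only hairpin 2 above the control, and without that library the value was -0.13. Srebf1, for the related factor of fatty acid synthesis, had 0.47 (SE 0.55) and -0.21 (SE 0.55). Insig1, which holds the precursor in the endoplasmic reticulum and is itself an SREBP target, had 0.34 (SE 0.58) and -0.23 (SE 0.57). Insig2 had 0.51 (SE 0.70) and -0.29 (SE 0.73), and Mbtps2, a protease that frees SREBP, 0.46 (SE 0.69) and 0.49 (SE 0.72). Rnf139, a ubiquitin ligase of the endoplasmic reticulum, was lower in both, at -0.77 (SE 0.55) and -0.78 (SE 0.56).

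Genes of cholesterol uptake, export and storage were higher for 11 of 15 tested with Bloodlinc hairpins (median 0.46) and for 10 of 15 with hnRNPU hairpins (median 0.48). Here too 0 were called by edgeR or DESeq2, with 2 and 3 at an unadjusted edgeR p under 0.05 (3.99% and 9.89% of genes tested). Over all genes tested, 53.5% and 45.7% were higher in the 2 comparisons, and edgeR called 0.124% and 0.879%. Abcg1, a sterol exporter, had 2.08 (SE 0.66, edgeR adjusted p = 0.391), but its levels of 10.05, 73.6 and 11.6 CPM place the difference in hairpin 1 alone. Soat1, which esterifies cholesterol, had 1.27 (SE 0.65) and 1.34 (SE 0.64). Its levels in the Bloodlinc control and hairpins 1 and 2 were 3.33, 2.59 and 13.5 CPM, and without hairpin 2 the value was -0.36. The macrophage marker Csf1r was at 1.69, 1.93 and 22.5 CPM in the same 3 libraries. Most macrophage markers went the other way: of 8 tested, 2 were higher and 6 lower in the fit with Bloodlinc hairpins. All 9 summed to 50.4, 31.6 and 47.8 CPM in those libraries. Apoe had 0.88 (SE 0.76) and 1.34 (SE 0.72), and Lipa, a lysosomal lipase, had -0.07 (SE 0.58) and 1.29 (SE 0.62). Macrophages also express Soat1, Apoe and Lipa strongly, and the 9 macrophage markers summed to 237, 1548 and 474 CPM in the hnRNPU control and hairpins 1 and 2, with Cd5l and C1qa at 0 in all 3. Of these sums Lyz2, which granulocytes also express, made up 216, 1472 and 443 CPM, and the other 8 markers 21.01, 75.7 and 30.7 CPM. Their part in these values was not tested.

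Fatty acid genes under SREBP control were higher for 11 of 12 with Bloodlinc hairpins (median 0.81), the highest median of the pathway lists, and lower for 8 of 12 with hnRNPU hairpins (median -0.27). By edgeR and DESeq2 0 were called, with 4 and 1 at an unadjusted edgeR p under 0.05, beside 3.99% and 9.89% of genes tested. Over all genes tested, 53.5% and 45.7% were higher in the 2 comparisons, and edgeR called 0.124% and 0.879%. Scd2, a stearoyl-CoA desaturase, was at 94.2 CPM in the Bloodlinc control and 266 and 364 CPM with the hairpins (1.74, SE 0.63, edgeR adjusted p = 0.651). Its level was 459 and 500.0 CPM in the vector pair, above the hairpins. Fads2, a fatty acid desaturase, had 1.39 (SE 0.58), Scd1, the second stearoyl-CoA desaturase, 1.36 (SE 0.59) and Elovl6, a fatty acid elongase, 1.15 (SE 0.58). With hnRNPU hairpins these 4 genes lay between -0.35 (Fads2) and 0.19 (Scd1). As for Mvd, Sqle, Lss and Dhcr7, both Bloodlinc hairpins of Scd2 lay between their own control and the empty vector. So did those of Fads2, Scd1 and Elovl6. These are examples, and the share over all genes tested was not counted.

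Across the 8 libraries, each of the 7 genes followed the mean of the other 6, with a Pearson r from 0.80 for Fdps to 0.97 for Idi1 and Sqle, as a description over libraries that fall into separate sets and share depth differences. Among 8232 protein-coding genes of at least 5 CPM outside the lists, the 8 most like the mean profile of the 7 were Ostc (r = 0.985), Sfr1 (0.981), Zfp110 (0.979), Adss (0.979), Spr (0.972), Txndc15 (0.967), Fam118b (0.967) and Pik3r3 (0.964). Ostc, a subunit of the complex that attaches sugar chains to proteins, was at 50.2, 64.4 and 66.0 CPM in the Bloodlinc control and hairpins 1 and 2 and at 56.9 and 53.0 CPM in the vector pair. In the hnRNPU set it was at 31.0, 24.8 and 29.5 CPM. Ostc was picked for its likeness to the mean profile, so its split between sets follows from that choice.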

How the data were processed

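The authors deposited raw counts per gene for each of the 8 libraries, with 37620 Ensembl gene IDs and 5 summary entries, which were left out of library sizes. Per the labels, libraries were strand-specific (dUTP) and sequenced on a HiSeq2000. Per the submitters' processing notes, mm9 was the genome build, TopHat2 2.0.11 the aligner and HTSeq the counter. The annotation release and strand setting are not given in the sources used here.

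The counts were analysed with edgeR 4.0.16 in R 4.3.3. One fit held all 8 libraries in 6 groups, with TMM scaling, filterByExpr (15355 genes tested) and quasi-likelihood F-tests, adjusted by Benjamini-Hochberg over all genes tested at 0.05. Only the 2 hairpins of each target repeat, which gave 2 residual degrees of freedom; each single control was assumed to vary like them, and with 397 prior degrees of freedom each gene's spread followed the trend of all genes. An SE is the log2 fold change divided by the square root of F. For a log2 value of 1 library, 2 counts were added as a prior. The fit was tested on simulated data. Symbols (87.4% of IDs), lengths and positions came from GENCODE M21 on GRCm38, a newer build than the counts, and promoters from RefSeq.

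The genes and lists were chosen with earlier results of these data known. Beyond the 7 genes, the text names Srebf1, Srebf2 and Insig1, and from each other list at most 4 genes of at least 5 CPM with the largest difference in either knockdown. Some genes of the lists enter the counts but are not reported by name here. Alternatives were DESeq2 1.42.0, 2 other scalings, no filter, robust estimation, a replicate block, other controls, fewer libraries, other prior counts and 2 settings added after the data were seen: thinning to the shallowest library, and leaving out unmatched IDs with mitochondrial ribosomal RNA. Intervals cover counting error only, since they are computed from the counts of single libraries. Reads also carried no molecular identifiers, which these intervals do not allow for.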

Additional observations from a re-analysis of the deposited data

How the results depend on the processing

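Neither the fitted values of the 7 genes nor their median changed direction without the filter on low counts, with robust estimation or without mitochondrial ribosomal RNA and unmatched IDs. Main limits are the single control library of each target, its difference from the other controls, and the depth of the hnRNPU hairpin libraries, where 6 counts can carry a level. The share of counts on unmatched IDs in those hairpin libraries is a further limit. The hairpin numbers name different hairpins for the 2 targets and so share only a number: the deviations of same-numbered hairpins had a correlation of -0.07 over 15355 genes, and the replicate block is an alternative only.

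Genes called for Bloodlinc (19) became 5 with DESeq2, 5 with robust estimation, 0 with the replicate block (238 at an unadjusted edgeR p under 0.05), 0 with the 3 controls pooled (1565 unadjusted), 0 with 3 libraries alone (369), 0 without both hnRNPU hairpins (504), 0 after thinning (298), 1043 with the other control, and 0 to 63 with 1 hairpin library left out. They were 63 without Bloodlinc hairpin 1 and 0 without Bloodlinc hairpin 2 (291 unadjusted), hnRNPU hairpin 1 (501) or hnRNPU hairpin 2 (497). Of the 7 genes, the other control called 4, with a median of 1.99. For hnRNPU (135), they became 65 with robust estimation, 7 with pooled controls, 12 after thinning, 2340 with the other control, and, with 1 library left out, 7 to 121 (7 without hairpin 1, 59 without hairpin 2). The other control called 3 of the 7, and the median of the 7 was -1.32 with it, -1.28 with pooled controls and -0.84 to -0.47 with 1 library left out. For the difference (50), they became 22 with DESeq2, 23 with robust estimation, 16 with the replicate block, 3 after thinning, and 6 to 37 with 1 library left out (6 without hnRNPU hairpin 1, 30 without hairpin 2). Genes past the fold in the vector pair (269) became 615 at a prior count of 0.5 and 60 at 5. They were 7435 against the Bloodlinc control hairpin, with 3 of the 7 and a median of 0.63, and 3598 against the hnRNPU control hairpin, with 7 of 7 and a median of 1.41. The cause of these shifts was not tested, other than fewer libraries or counts by construction.

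Log2 fold changes with Bloodlinc hairpins changed sign as follows, the cause not being tested. With a replicate block, they were Mvk -0.26, Nus1 0.15 and Lipa 0.086. With 1 hairpin library left out in turn, the values ranged from -0.20 to 0.088 for Rce1, -0.24 to 0.11 for Lipa, -0.21 to 0.89 for Mvk, -0.60 to 0.026 for Fdps, -0.13 to 0.64 for Srebf2, -0.45 to 0.18 for Fntb, -0.48 to 0.23 for Nus1 and -0.36 to 2.04 for Soat1. With the other set's control hairpin, they were Fdps 2.37, Lbr 0.059, Rabggta -0.14, Rce1 0.20, Rnf139 0.95, Soat1 -1.10 and Apoe -2.39. With the 3 controls pooled, they were Fdps 0.68, Dhcr7 -1.15, Fntb 0.22, Rabggta -0.0048, Rce1 0.064, Rnf139 0.30, Mbtps2 -0.19, Soat1 -0.55, Apoe -1.67, Scd1 -0.10 and Elovl6 -1.11. After thinning, the value was Rce1 0.38.

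Log2 fold changes with hnRNPU hairpins changed sign as follows, the cause not being tested. With DESeq2, they were Fdft1 0.034 and Elovl6 0.027. With DESeq2's size factors in edgeR, they were Fdft1 0.034 and Elovl6 0.028. With upper quartile scaling, they were Fdft1 0.072 and Elovl6 0.067. With a replicate block, the value was Scd1 -0.39. With 1 hairpin library left out in turn, the values ranged from -1.21 to 0.13 for Mvk, -0.17 to 0.42 for Mvd, -0.26 to 0.0054 for Fdft1, -0.67 to 0.12 for Dhcr7, -1.60 to 0.24 for Fads2, -0.30 to 0.014 for Elovl6 and -0.45 to 0.55 for Scd1. With the other set's control hairpin, they were Mvd -0.60, Dhcr7 1.43, Scd1 -1.14 and Elovl6 0.11. With the 3 controls pooled, they were Mvd -1.59 and Scd1 -2.61. With the 3 libraries of the comparison alone, they were Fdft1 0.050 and Elovl6 0.043. After thinning, they were Fdft1 0.21, Insig1 0.12 and Insig2 0.11. For the difference of the effects, they ranged from -0.014 to 0.57 for Fdps in the same way.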
